A study of Mus musculus with 12 samples.

Results

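The apolipoproteins are the protein components of the lipid particles that circulate in blood. Their genes were followed here in bulk RNA sequencing of mouse intrahepatic cholangiocarcinoma, a cancer of the bile ducts within the liver. The set holds Apoa1, Apoa2, Apoa4, Apoa5, Apob, Apoc1, Apoc3, Apoe, Apoh and Apom, which are 10 of the 24421 gene symbols in the expression table. They were chosen by symbol, and all 10 passed the filter on low values (a mean of at least 1 FPKM over the libraries). FPKM is the number of sequenced fragments of a gene, divided by its transcript length and by the size of the library.

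The 12 libraries came from tumour tissue of the 425-ICC mouse model and fell into 4 groups of 3. Mice received IgG control antibody (Control), the treatment that the labels abbreviate as GC, dual immune checkpoint blockade (ICB), or GC together with dual ICB (Combination). The series title speaks of chemotherapy, CTLA-4 blockade and anti-PD1, and tissue was taken after 8 days of treatment. Neither strain, genotype nor age of the mice is given in the sources used here, and nothing says that the 3 libraries of a group came from separate animals. The p-values therefore measure the spread between these libraries, which may in part be technical.

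Apolipoproteins wrap a core of triglyceride and cholesteryl ester, keep the particle soluble, and act as ligands for receptors and as regulators of lipases. Hepatocytes make most of them. Enterocytes of the small intestine make Apob, Apoa1, Apoa4 and Apoc3 for chylomicrons, the particles that carry dietary fat, while macrophages are a further well-known source of Apoe. Apob is the structural protein that stays with a particle of very low density lipoprotein (VLDL) or chylomicron for life, and the smaller apolipoproteins exchange between particles. A liver tumour sample can hold normal liver beside tumour, and in bulk RNA a smaller number of cells of a type and less RNA per cell cannot be told apart.

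In the GENCODE annotation of the mm10 mouse genome (GRCm38), 4 of the genes lie in a cluster on chromosome 9. These are Apoa1 (chr9:46228580-46230466, plus strand), Apoc3 (chr9:46232933-46235636, minus strand), Apoa4 (chr9:46240696-46243459, plus strand) and Apoa5 (chr9:46268633-46271919, plus strand). Apoe (chr7:19696109-19699188) and Apoc1 (chr7:19689481-19692660) are neighbours on the minus strand of chromosome 7. The others stand alone: Apoa2 (chr1:171225054-171226379, plus strand), Apob (chr12:7977648-8016835, plus strand), Apoh (chr11:108343354-108414396, plus strand) and Apom (chr17:35128997-35132050, minus strand). All 10 are protein coding. Annotated antisense genes overlap Apoa4 and Apoa5, and Prkca overlaps Apoh on the opposite strand; whether strand was used in counting is not stated, so reads of such partners cannot be told apart.

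Promoter windows from 250 bases before to 50 bases after the RefSeq transcription start matched 8 of the 10 symbols; Apoc1 and Apoc3 were not matched. The window of Apob is shown because Apob had the largest ratio of group means between Combination and Control. Those of Apoa1 and Apoa4 belong to the pair that led the members in Combination replicate 1, and that of Apoe belongs to the most abundant member in 11 of the 12 libraries. Capitals mark matches, on either strand, to 5 letter strings searched by script: CAAAGTCC and CAAAGGTC (cores of sites for the liver factor HNF4), AGGTCA (a nuclear receptor element), TTGCNNAA (a C/EBP core) and TATAAA (the TATA box).
Apoa1, GRCm38.p6 chr9:46228380-46228679, plus strand: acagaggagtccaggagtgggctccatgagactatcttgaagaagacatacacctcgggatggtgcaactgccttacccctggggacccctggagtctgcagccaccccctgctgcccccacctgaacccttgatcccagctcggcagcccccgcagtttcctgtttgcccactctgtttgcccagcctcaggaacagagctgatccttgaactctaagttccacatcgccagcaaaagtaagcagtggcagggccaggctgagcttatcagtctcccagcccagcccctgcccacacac
Apoa4, GRCm38.p6 chr9:46240594-46240893, plus strand: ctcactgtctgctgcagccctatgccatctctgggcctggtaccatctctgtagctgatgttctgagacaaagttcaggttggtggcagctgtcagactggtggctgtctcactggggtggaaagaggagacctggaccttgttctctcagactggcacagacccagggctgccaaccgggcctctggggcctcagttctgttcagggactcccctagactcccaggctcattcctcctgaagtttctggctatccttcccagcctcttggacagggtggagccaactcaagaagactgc
Apob, GRCm38.p6 chr12:7977427-7977726, plus strand: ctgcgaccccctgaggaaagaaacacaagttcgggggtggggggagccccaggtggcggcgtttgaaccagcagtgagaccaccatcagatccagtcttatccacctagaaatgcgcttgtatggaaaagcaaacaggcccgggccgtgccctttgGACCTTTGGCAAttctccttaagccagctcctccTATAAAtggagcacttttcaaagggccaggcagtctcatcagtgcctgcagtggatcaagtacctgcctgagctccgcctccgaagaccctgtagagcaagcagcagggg
Apoe, GRCm38.p6 chr7:19699139-19699438, minus strand: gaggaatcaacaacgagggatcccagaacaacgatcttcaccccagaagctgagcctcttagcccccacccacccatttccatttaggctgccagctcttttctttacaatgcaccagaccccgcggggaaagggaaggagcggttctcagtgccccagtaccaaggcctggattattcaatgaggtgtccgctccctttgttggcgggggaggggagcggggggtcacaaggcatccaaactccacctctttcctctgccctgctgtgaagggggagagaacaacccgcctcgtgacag

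The Apob window held CAAAGGTC on the minus strand with its leftmost base at position -94 from the start, TTGCNNAA on the minus strand at -90, which overlaps it, and TATAAA at -60. CAAAGGTC occurred in 1.17% of all 32851 mouse promoter windows of the same length and in those of 2 members, Apob and Apoe (an alternative start). CAAAGTCC occurred in 1.42% of all windows and in 0 of the 8 members. TTGCNNAA was found in 10.8% of windows and 2 members, and TATAAA in 13.6% of windows and 4 members. AGGTCA was found in 16.3% of windows and 2 members. The windows shown for Apoa1, Apoa4 and Apoe held none of these letters. The shares are per window, whereas a member counts when any of its windows holds a match. Apoe has 3 windows and Apoa2 and Apoa5 have 2 each, so counts and shares are unlike measures. Matches were not compared with binding data.

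Some libraries stood apart before any member was considered. A list of 18 hepatocyte genes without apolipoproteins (among them Alb, which encodes albumin) took 13.41% of all FPKM in Combination replicate 2 and 5.16% in replicate 3, but 0.07998% in replicate 1. Its range was 0.000885% to 0.01125% in the Control libraries, 0.08732% to 0.819% with GC and 0.0623% to 0.3328% with ICB. A list of 14 small intestinal enterocyte genes averaged 5.82 on the log2(FPKM + 1) scale in Combination replicate 1, against 0.64 to 1.24 in the other 11 libraries. Its defining genes Alpi (intestinal alkaline phosphatase), Lct (lactase) and Sis (sucrase-isomaltase) stood at 106, 32.97 and 25.02 FPKM there and between 0 and 0.141 FPKM elsewhere. Of these 14 genes 1, Fabp6, was listed at 0 in every library. A list of 7 skeletal muscle genes averaged 6.96 and 8.59 in Control replicate 2 and GC replicate 2 and at most 0.75 elsewhere. Of the biliary markers, Krt19 was listed at 0 in Control replicates 2 and 3 and Epcam at 0 in Control replicate 3 and ICB replicate 1, whereas Sox9 (7.56 to 91.9 FPKM) and Spp1 (276 to 7598 FPKM) were present throughout. The part of these other cell types in the results below was not tested; their values stand beside the results.

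**Figure D1:**
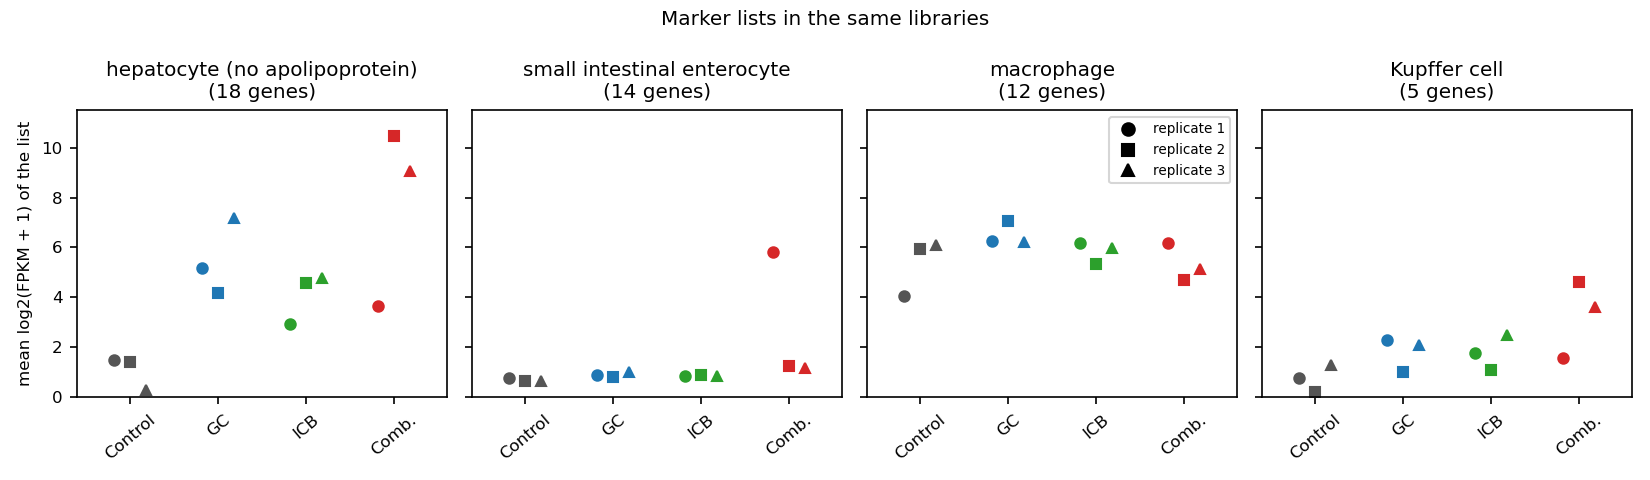
Mean log2(FPKM + 1) of the hepatocyte list (18 genes, no apolipoprotein), the small intestinal enterocyte list (14), the macrophage list (12) and the Kupffer cell list (5) in each of the 12 libraries, by group, with a symbol for each replicate. Combination replicates 2 and 3 are highest on the hepatocyte list (10.48 and 9.07) and Combination replicate 1 on the enterocyte list (5.82).

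As a whole the 10 genes took 0.1255%, 0.1531% and 0.1197% of all FPKM in the Control libraries. Their share was 0.5174%, 0.9242% and 1.244% in GC, 0.1821%, 0.2371% and 0.423% in ICB, and 1.345%, 9.358% and 4.438% in Combination. The 4 groups differed in make-up as well as in amount. Apoe alone made up 94.2% to 99.2% of the members' summed FPKM in the Control libraries, 55.7% to 92.5% with GC, 62.6% to 89.3% with ICB and 22.6% to 32.1% with Combination. Among the 100 most abundant genes there were 0 members in each Control library, 1, 1 and 2 in GC, 1 in each ICB library, and 3, 6 and 5 in Combination.

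**Figure D2:**
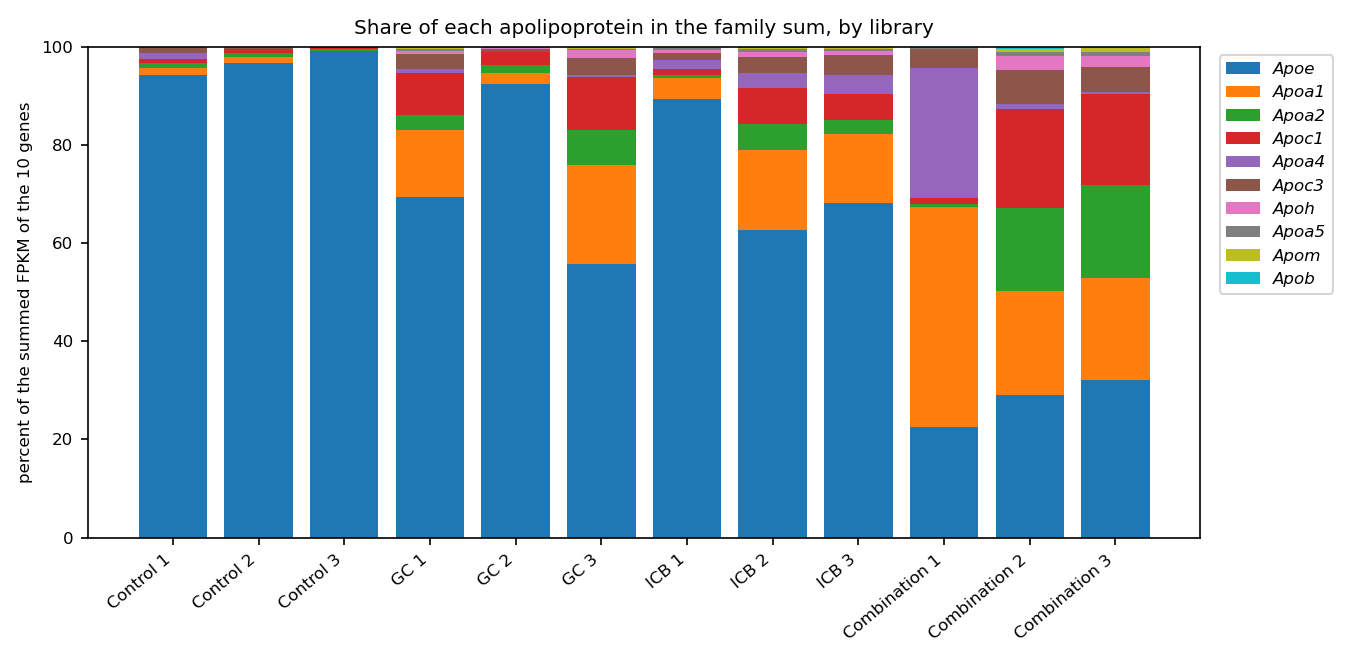
Share of each of the 10 apolipoprotein genes in their summed FPKM, by library (bars sum to all members; replicates 1 to 3 of Control, GC, ICB and Combination). Apoe fills 94.2% to 99.2% of the Control bars and 22.6% to 32.1% of the Combination bars, where Apoa1 takes 44.7% of replicate 1.

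The 3 Combination libraries were not alike in this make-up. In replicate 1 Apoa1 took 44.7% of the members' sum and Apoa4 took 26.5%, while Apoa2 took 0.772% and Apoc1 1.14%. In replicate 2 Apoa1 took 21.2%, Apoc1 20.2%, Apoa2 16.9% and Apoa4 0.91%, and replicate 3 was close to replicate 2, with Apoa1 at 20.8%, Apoa2 at 19.01%, Apoc1 at 18.4% and Apoa4 at 0.472%. Apoe was the second most abundant of all genes in replicates 2 and 3, with Apoa1 ranked 4, Apoa2 ranked 6 and Apoc1 ranked 5 and 7.

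Apoa1 encodes the main protein of high density lipoprotein (HDL), and it had the largest log2 difference between Combination and Control of the 10 genes. It measured 13.0004, 11.2 and 0.894 FPKM in Control replicates 1 to 3, and 3721, 10870.4 and 5041 FPKM in Combination. GC gave 449, 115 and 1564 FPKM, and ICB gave 47.4, 251 and 365 FPKM. Every Combination library lay above every library of the other groups, and the lowest treated library, ICB replicate 1, lay above the highest Control library. The Combination mean of 6544 ± 3804 FPKM (SD, n = 3) stood 9.74 ± 1.06 (SE) above the Control mean of 8.38 ± 6.54 on the log2(FPKM + 1) scale, with an adjusted p of 0.000553 (limma, Benjamini-Hochberg over 12765 genes).

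Apoa2, the second major HDL protein, measured 7.20, 5.75 and 3.25 FPKM in Control and 64.2, 8667 and 4617 FPKM in Combination. In GC it measured 103, 92.99 and 554 FPKM and in ICB 6.89, 81.6 and 73.8 FPKM. ICB replicate 1 lay within the Control range, and Combination replicate 1 lay below all 3 GC libraries, so only Combination and GC were clear of Control. Its log2 difference between Combination and Control was 7.80 ± 1.57 (adjusted p = 0.0189).

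Apom carries sphingosine 1-phosphate, a signalling lipid, on HDL. It measured 0.534, 0 and 0.134 FPKM in Control, 7.33, 3.25 and 20.3 in GC, 0.8205, 4.52 and 7.22 in ICB, and 6.06, 305 and 197 FPKM in Combination. Combination replicate 1 fell inside the GC and ICB ranges and replicates 2 and 3 far above them. The log2 difference between Combination and Control was 5.97 ± 1.18 (adjusted p = 0.0171).

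**Figure D3:**
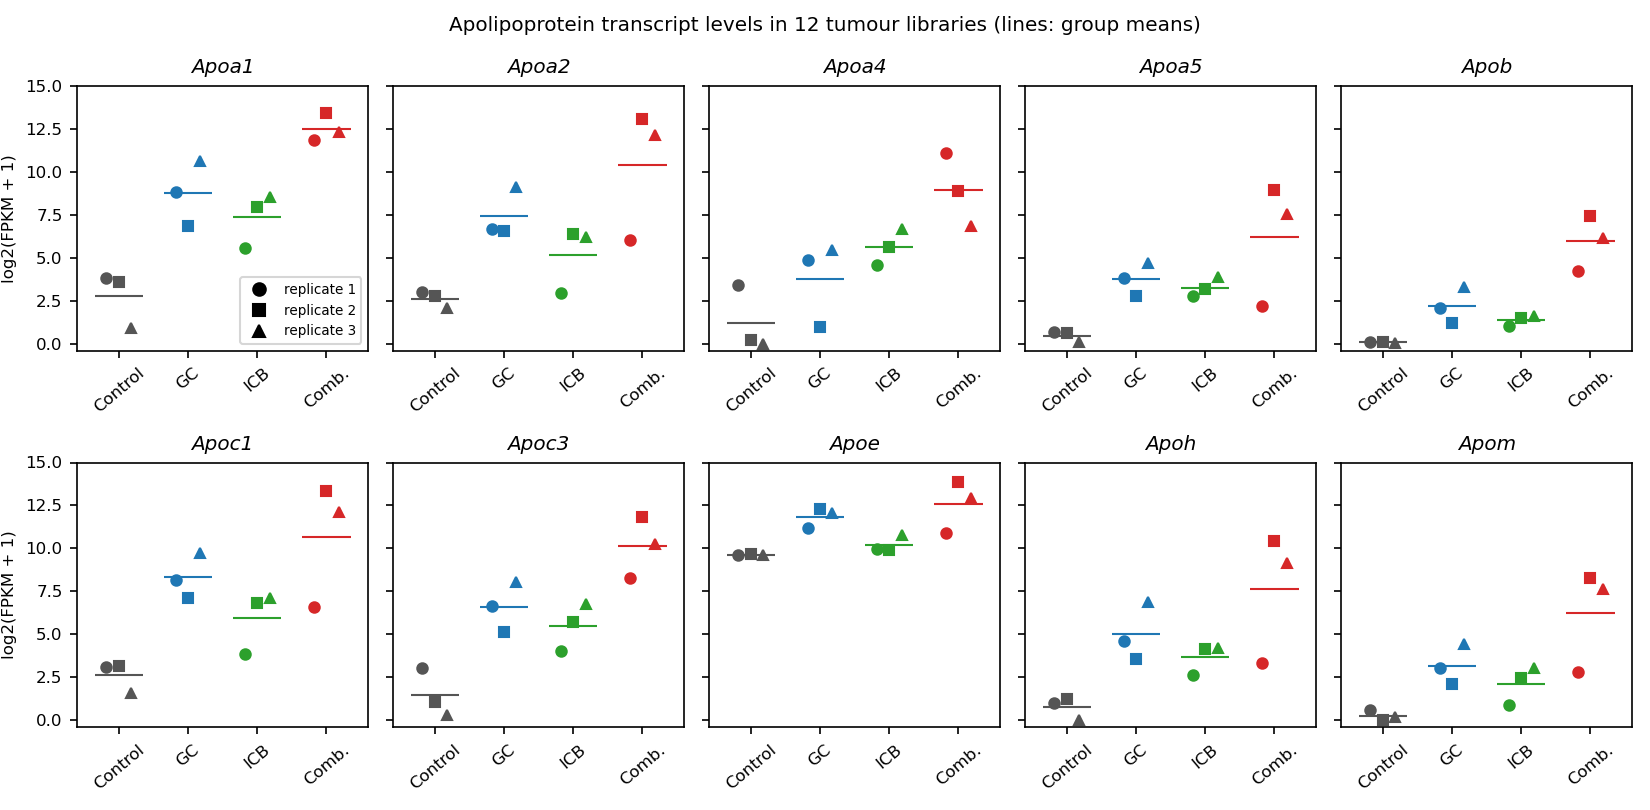
FPKM of the 10 apolipoprotein genes on a log2(FPKM + 1) axis, 1 point per library and a line at each group mean (n = 3). In Combination, Apoa1 is high in all 3 libraries, and Apoa4 falls from replicate 1 to replicate 3 (2207, 466.1 and 115 FPKM). Apoa2, Apoa5, Apoc1, Apoh and Apom are far lower in replicate 1 than in replicates 2 and 3.

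Apob, the structural protein of VLDL and chylomicrons, had the lowest Control mean of the 10 genes. It measured 0.0926, 0.0792 and 0.046 FPKM in Control, 3.28, 1.31 and 8.81 FPKM in GC, 1.09, 1.87 and 2.005 FPKM in ICB, and 18.02, 173 and 70.8 FPKM in Combination. All Combination libraries lay above all others, and all GC and ICB libraries above all Control libraries. The ratio of the Combination mean (87.2 ± 78.7 FPKM) to the Control mean (0.0726 ± 0.024 FPKM) was 1201, the largest of the 10 genes. With 1 FPKM added before taking logs, which shrinks differences from so low a level, the log2 difference was 5.85 ± 0.69 (adjusted p = 0.000839).

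Apoa4, a protein of chylomicrons and HDL made in the intestine and in the liver, followed another order. Its values were 9.91, 0.141 and 0 FPKM in Control, 28.9, 0.951 and 42.3 in GC, 22.6, 47.7 and 99.4 in ICB, and 2207, 466.1 and 115 FPKM in Combination. Here Combination replicate 1, the library with enterocyte markers, was the highest of the 3, and GC overlapped Control. The log2 difference between Combination and Control was 7.73 ± 1.35 (adjusted p = 0.00917).

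Apoa5 raises the clearance of triglyceride by lipoprotein lipase and is made by the liver. It measured 0.592, 0.529 and 0.0843 FPKM in Control, 13.2, 5.81 and 25.5 in GC, 5.75, 8.06 and 13.8 in ICB, and 3.62, 489 and 183 FPKM in Combination. Combination replicate 1 was thus below every GC and ICB library. The log2 difference between Combination and Control was 5.76 ± 1.29, with an adjusted p of 0.0307, the highest of the 10 members.

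Apoc3 inhibits lipoprotein lipase and is a neighbour of Apoa1. It measured 7.25, 1.08 and 0.234 FPKM in Control, 99.02, 33.5 and 262 FPKM in GC, 15.5, 50.96 and 108 FPKM in ICB, and 315, 3611 and 1216 FPKM in Combination. No Combination library overlapped any other group, and no GC or ICB library overlapped Control. The log2 difference between Combination and Control was 8.66 ± 1.05 (adjusted p = 0.000916).

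Apoc1, a small exchangeable protein that activates cholesterol esterification in HDL, measured 7.60, 8.08 and 1.95 FPKM in Control and 94.7, 10371 and 4481 FPKM in Combination. GC gave 286, 136 and 839.9 FPKM and ICB gave 13.4, 110.4 and 139 FPKM. Combination replicate 1 was again below all GC libraries. The log2 difference between Combination and Control was 8.07 ± 1.497 (adjusted p = 0.0126). Apoh, a phospholipid-binding plasma protein (beta-2-glycoprotein), measured 1.03, 1.32 and 0 FPKM in Control, 23.5, 10.98 and 118 in GC, 5.29, 16.5 and 17.8 in ICB, and 9.01, 1401 and 563 FPKM in Combination. In Combination replicate 1 it lay below every GC library and within the ICB range. Its log2 difference between Combination and Control was 6.89 ± 1.48 (adjusted p = 0.0255).

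Apoe is the ligand by which remnant particles bind their receptors on cells, and it was the only member that was abundant in Control tumours. It measured 771, 827 and 783 FPKM in Control, which is rank 116, 103 and 116 of all genes. GC gave 2309, 4959.97 and 4317 FPKM, ICB 995, 959.6 and 1779 FPKM, and Combination 1878, 14884 and 7802 FPKM. All treated libraries were above all Control libraries, but Combination replicate 1 lay below all 3 GC libraries. The log2 difference between Combination and Control was 2.92 ± 0.63 (adjusted p = 0.0249), the smallest of the 10 genes. A list of 12 macrophage genes, none of which passed the test in any comparison, held between 0.06688% and 1.112% of FPKM in the Control libraries, between 1.155% and 1.418% with GC and between 0.324% and 0.6042% with ICB. The Combination libraries held 1.149%, 0.1441% and 0.2576%. These shares lean on Lyz2, which measured 5634, 335 and 753 FPKM in Combination, where the list sums were 7108, 789 and 1410 FPKM. On the log2(FPKM + 1) scale the list averaged 4.03 to 6.09 in Control, 6.21 to 7.05 with GC and 5.34 to 6.17 with ICB. It averaged 6.17, 4.68 and 5.12 in Combination replicates 1 to 3. The part of macrophages in the Apoe values was not tested.

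All 10 members thus rose in Combination against Control, where limma called 3.55% of the 12765 tested genes higher. Their groups did not overlap in any of the 10 cases, against 9.74% of tested genes with all Combination libraries above all Control libraries. The median log2 difference was 7.31 over the members and -0.29 over all tested genes. Leaving out Combination replicates 2 and 3, an alternative chosen after seeing the data, leaves replicate 1 alone in its group, and that library is then assumed to vary like those of the other groups. In that fit all 10 differences stayed positive. Apoa1, Apoa4, Apob and Apoc3 stayed called whichever of the 12 libraries was left out. The count was 5 without Control replicate 1 (1.68% of all tested genes called higher), 5 without Control replicate 2 (1.63%) and 4 without Control replicate 3 (1.69%). It was 5 without Combination replicate 2 and 5 without Combination replicate 3 (1.99% each). When Combination and Control were fitted without the other 2 groups it was 3 (Apoa1, Apob and Apoc3), where 0.729% of tested genes were called higher.

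GC against Control gave values in the same direction for all 10 genes, but limma called 0 members at an adjusted p below 0.05. Over all tested genes 0.00783% were called higher, a single gene. Apoa1 came nearest, at a mean of 709.5 ± 759 FPKM against 8.38 ± 6.54 FPKM and a log2 difference of 5.98 ± 1.06 (adjusted p = 0.0958). Apoc3 followed at 5.13 ± 1.05 (adjusted p = 0.141), and Apoe differed by 2.21 ± 0.63 (3862 ± 1383 against 794 ± 29.1 FPKM, adjusted p = 0.227). Of the members 9 had an unadjusted p under 0.05, against 9.86% of tested genes, and 9 did not overlap Control, against 18.6%. Apoa4 was the exception on both counts. The count of called members was 7 without Combination replicate 1 (Apoa1, Apoa2, Apoa5, Apoc1, Apoc3, Apoe and Apoh), where 1.42% of all tested genes were called higher, and 6 without Combination replicates 2 and 3, where 1.88% were. These 2 settings leave the GC and Control values as they are and alter only the shared estimate of the spread.

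In ICB against Control limma also called 0 members, and 0% of tested genes. The largest log2 difference was that of Apoa1 at 4.58 ± 1.06 (221 ± 161 against 8.38 ± 6.54 FPKM), followed by Apoa4 at 4.39 ± 1.35 and Apoc3 at 4.04 ± 1.05, all with an adjusted p of 1. Apoe had the smallest, 0.59 ± 0.63, with a 95% interval from -0.78 to 1.96. Of the members 4 had an unadjusted p under 0.05 (1.75% of tested genes), and 9 lay wholly above Control (4.65% of tested genes). Comparisons against Control share the Control libraries, so their values are not independent of each other.

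**Figure D4:**
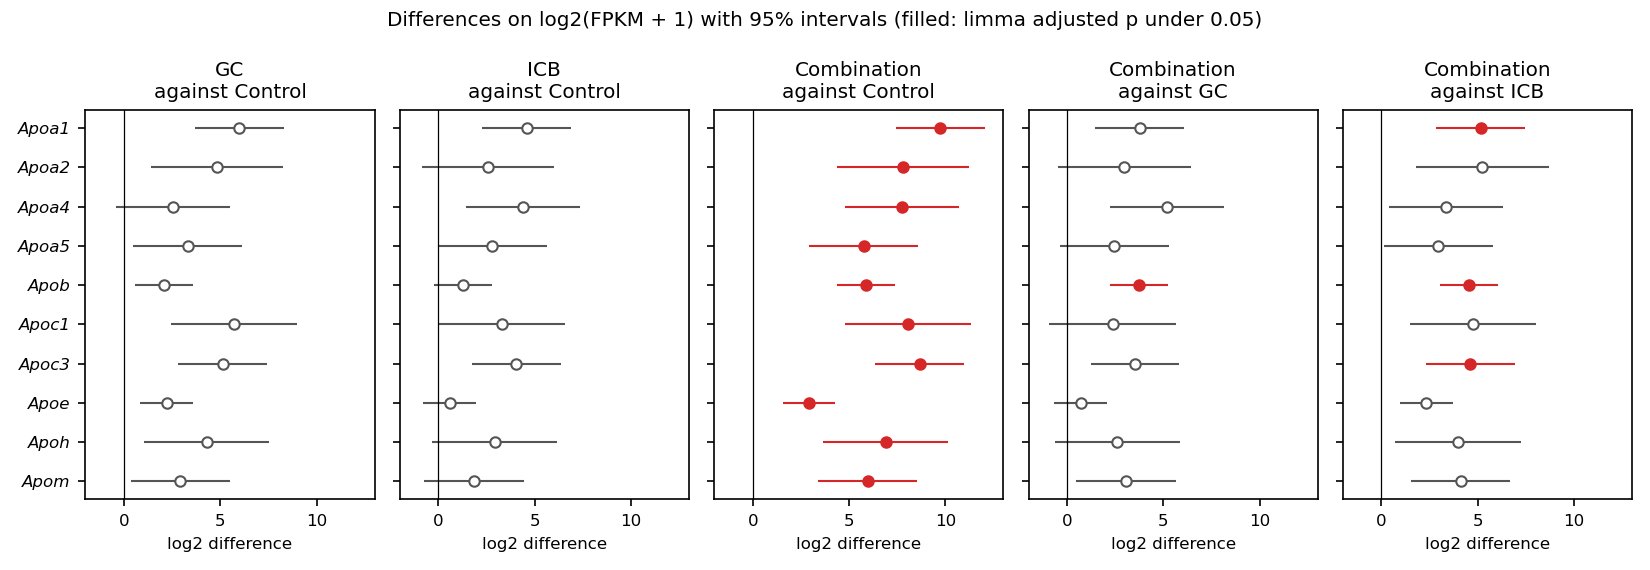
Log2 differences of the 10 apolipoprotein genes on the log2(FPKM + 1) scale in the comparisons of GC, ICB and Combination with Control and of Combination with GC and ICB; bars are 95% intervals from limma, and filled points passed the adjusted p threshold of 0.05. All 10 are filled for Combination against Control, and none for GC or ICB against Control.

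Combination against GC called 1 member, Apob, where 0.642% of tested genes were called higher. Its means were 87.2 ± 78.7 and 4.47 ± 3.89 FPKM, with a log2 difference of 3.75 ± 0.69 (adjusted p = 0.0358). This call was lost in 10 of the 12 fits that left out a library; it held without GC replicate 3 and without Combination replicate 1. Apoa1, Apoa4, Apob and Apoc3 were the 4 members whose Combination libraries all lay above GC (4.16% of tested genes). The other 6 overlapped GC, in each case through Combination replicate 1. For Apoe the difference was 0.71 ± 0.63, with a 95% interval from -0.66 to 2.08. Without Combination replicate 1 the count was 9, all but Apoa4, and 8.76% of all tested genes were called higher in that fit. Combination replicate 1 taken alone had a level below the GC mean for Apoa2, Apoa5, Apoc1, Apoe, Apoh and Apom.

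Combination against ICB called 3 members, with 2.05% of tested genes called higher. These were Apoa1 (5.16 ± 1.06, adjusted p = 0.0292), Apob (4.56 ± 0.69, adjusted p = 0.00554) and Apoc3 (4.62 ± 1.05, adjusted p = 0.047). The Combination libraries lay wholly above ICB for 5 members, Apoe and Apoa4 besides these 3, against 9.47% of tested genes. Apob stayed called whichever library was left out. The Apoa1 call was lost without GC replicate 1, any ICB replicate, or Combination replicate 2 or 3, and the Apoc3 call held only without Control replicate 1, GC replicate 2 or Combination replicate 1. With Combination replicate 1 left out the count was 9, again all but Apoa4, and 10.1% of all tested genes were called higher. With Combination replicate 1 as the sole library of its group, the difference from ICB was negative for Apoa5 (-1.06) and Apoh (-0.35). Deviations from the group means of ICB and Combination libraries with the same replicate number correlated at 0.139 to 0.289, but the labels state no pairing. With the replicate number as a block limma called 1 member, Apob (adjusted p = 0.00928), while Apoa1 (adjusted p = 0.0517) and Apoc3 (adjusted p = 0.0637) were not called. In that fit 1.77% of all tested genes were called higher.

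The interaction, the Combination effect less the sum of the GC and ICB effects, asks whether both treatments together differ from the sum on the log2 scale. Limma called 0 members and 0.0157% of tested genes. Apob was the sole member with an unadjusted p under 0.05 (2.46 ± 0.97, adjusted p = 0.568), against 8.09% of tested genes. The values of the 10 members ran from -0.96 to 2.46, with 5 above and 5 below 0. The Apob interaction was called when Combination replicate 1 was left out (adjusted p = 0.02995), in a fit that called 4.47% of all tested genes higher.

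Ratios between members within a library do not depend on the scaling of that library, and they set Combination replicate 1 apart. The ratio of Apoa1 to Apoa2 was 57.96 there and between 0.275 and 6.88 in the other 11 libraries. The ratio of Apoa4 to Apoa5 was 609 there and at most 16.7 elsewhere, and that of Apob to Apoh was 2.00 there against 0.0599 to 0.205 in the 10 others with Apoh above 0. By contrast, the ratio of Apoc1 to Apoa2 stayed between 0.601 and 2.77 in all 12 libraries, although the Apoa2 level itself ran from 3.25 to 8667 FPKM. These ratios were not tested.

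Levels relative to Alb, the albumin gene and the most abundant hepatocyte product, showed the same split. Alb measured 35.2, 24.1 and 2.95 FPKM in Control, 441, 174 and 893 in GC, 41.7, 288 and 369 in ICB, and 217, 45398.5 and 16866.5 FPKM in Combination. Per unit of Alb, Apoa1 stood at 17.1 in Combination replicate 1 and at 0.239 and 0.299 in replicates 2 and 3. Apoa4 stood at 10.2 against 0.0103 and 0.00679, Apoc3 at 1.45 against 0.0795 and 0.0721, and Apob at 0.0829 against 0.00381 and 0.0042. Apoe stood at 8.64 against 0.328 and 0.463. Apoa2 at 0.295 (0.191 and 0.274 in replicates 2 and 3), Apoc1 at 0.436 (0.228 and 0.266) and Apoh at 0.0415 (0.0309 and 0.0334) differed far less between the 3 libraries. The ratio of Apoe to Alb was 21.9 or more in every Control library (at most 265), 4.84 to 28.5 with GC and 3.33 to 23.8 with ICB, so that Alb exceeded Apoe in Combination replicates 2 and 3 alone.

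**Figure D5:**
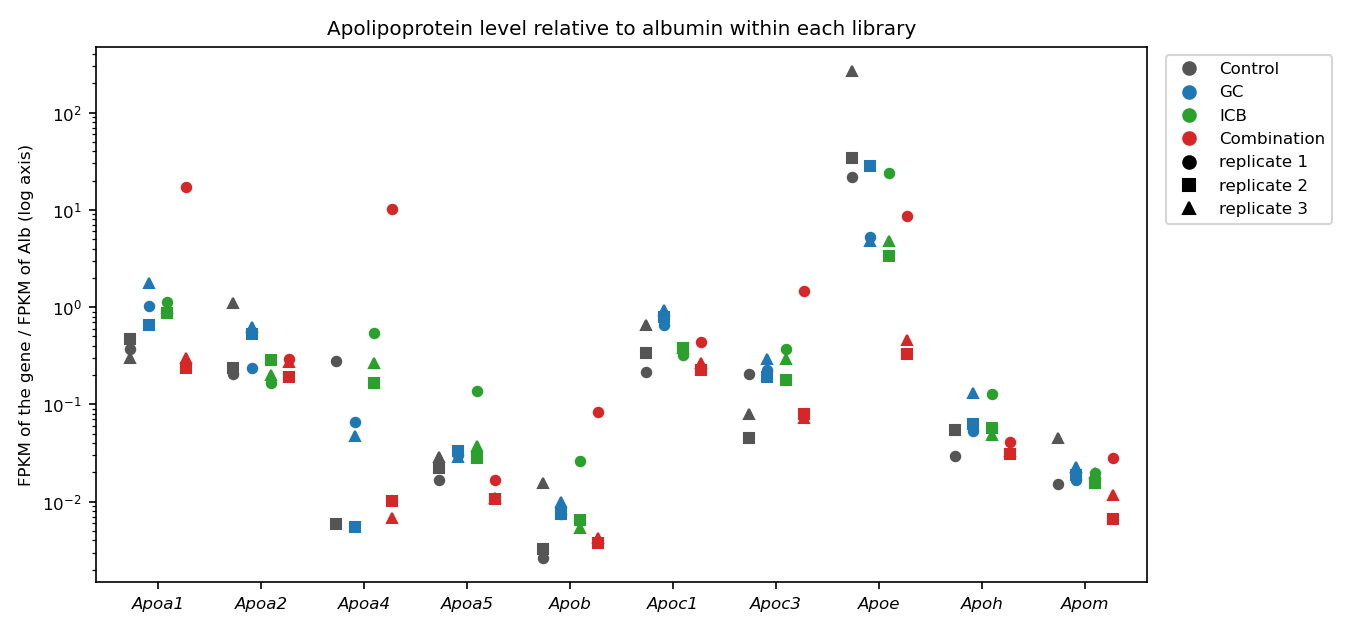
FPKM of each apolipoprotein gene divided by that of Alb in the same library, on a log axis, by group (3 libraries each; values at 0 cannot be drawn). Combination replicate 1 stands at 17.1 for Apoa1 and 10.2 for Apoa4, and replicates 2 and 3 at 0.239 and 0.299 and at 0.0103 and 0.00679.

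Over the 12 libraries, members were compared by Pearson correlation of log2(FPKM + 1), as a description, since all genes were measured in the same libraries. The pair most alike was Apoa2 and Apoc1 (r = 0.990) and the pair least alike was Apoa4 and Apoe (r = 0.452). Outside the set, the gene most like Apob was Hnf4a (r = 0.994; 0.985 over the 10 libraries without Combination replicates 2 and 3), which encodes a transcription factor of liver and intestine. The gene most like Apoh was Plg (r = 0.997), which encodes plasminogen, and that most like Apoa2 was Ttr (r = 0.991), which encodes transthyretin. Apoa1 was most like Fabp1 (r = 0.973), a fatty acid binding protein of liver and intestine, Apoa4 most like the epithelial keratin Krt8 (r = 0.95), and Apoe most like Igf1 (r = 0.989). Apoc1 was nearest to Serpina1c (r = 0.996), Apoa5 to Fbp1 (r = 0.993), Apom to Slc38a3 (r = 0.990) and Apoc3 to Igfbp2 (r = 0.971).

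Among 9 other apolipoproteins, 8 passed the filter, and all 8 had a positive difference in Combination against Control. Of them 4 were called higher, namely Apoc2, Apoc4, Apon and Saa4. Over all tested genes 3.55% were called higher in this comparison. That share was 11% without Combination replicate 1 and 0.729% with the 2 groups fitted alone. The same shares apply to the list counts against Control given below. Apoc2, the activator of lipoprotein lipase, measured 12.8, 14.6 and 37.2 FPKM in Control and 439, 202 and 75.1 FPKM in Combination (3.23 ± 0.62, adjusted p = 0.0147). Apoc4, its neighbour, measured 9.07, 0 and 0 FPKM in Control and 18.6, 1335 and 690.05 FPKM in Combination (6.93 ± 1.45, adjusted p = 0.0219). The ratio of Apoc2 to Apoc4 was 23.6 in Combination replicate 1 and 0.109 to 3.86 in the 9 other libraries with Apoc4 above 0; a readthrough transcript of both genes has its own entry, so that reads may be split between them. With Combination replicate 1 alone in its group, or without either of replicates 2 and 3, Apoc2 was the 1 gene of the 8 called, and without Combination replicate 1 all 8 were called. The count was 1 without Control replicate 1 or 3, 0 without Control replicate 2, and 2 without GC replicate 1 or any ICB replicate. It was also 0 when Combination and Control were fitted without the other 2 groups, and 2 with TMM factors or with no filter.

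Of 10 genes of lipoprotein assembly and secretion, 9 had a positive difference in Combination against Control and 5 were called higher. Mttp loads lipid onto Apob as that protein is made. It measured 2.11, 2.54 and 3.35 FPKM in Control, 4.21, 2.16 and 8.81 in GC, 2.66, 2.62 and 3.79 in ICB, and 75.7, 72.8 and 33.4 FPKM in Combination (3.997 ± 0.41 against Control, adjusted p = 0.000444). Tm6sf2, which takes part in the lipidation of VLDL, measured 0.168, 0.348 and 0.511 FPKM in Control and 33.6, 32.1 and 12.3 FPKM in Combination (4.21 ± 0.34, adjusted p = 0.000169). Unlike most of the apolipoproteins, both genes were about as high in Combination replicate 1 as in replicate 2. Cideb (5.45 ± 0.66), Dgat2 (4.30 ± 0.62) and Mia2 (2.80 ± 0.59) were the other called genes. Mttp, Tm6sf2, Cideb and Dgat2 also passed against GC, and all 5 passed against ICB. The count against Control was 3 when Combination and Control were fitted alone. It was 4, with the Mia2 call lost, without Control replicate 1, 2 or 3 or Combination replicate 2 or 3. It was 6 without Combination replicate 1 and 5 without any GC or ICB replicate. Dgat1 and Mogat2 were not called in the main fit. Mogat2, the intestinal monoacylglycerol acyltransferase, measured 26.2 FPKM in Combination replicate 1 and at most 0.472 FPKM elsewhere, and Dgat1 measured 99.9 FPKM there and 8.19 to 27.3 FPKM elsewhere.

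Of 15 regulators tested, 13 had a positive difference in Combination against Control. Of them 5 were called higher, among these Creb3l3, Hnf4a, Nr1h3 and Nr1h4. Creb3l3, a membrane-bound factor that activates Apoa4 and other triglyceride genes, averaged 0.349 ± 0.358 FPKM in Control, 6.86 ± 4.85 in GC, 4.62 ± 1.34 in ICB and 52.4 ± 14.4 in Combination (5.30 ± 0.41 against Control, adjusted p = 0.000156), and it passed against GC and ICB as well. Hnf4a averaged 0.0745 ± 0.0729 FPKM in Control and 72.0 ± 62.8 FPKM in Combination (5.62 ± 0.70, adjusted p = 0.00106). Nr1h3 (the oxysterol receptor LXR alpha) differed by 3.22 ± 0.59 and Nr1h4 (the bile acid receptor FXR) by 3.94 ± 0.82. The count was 2 when Combination and Control were fitted alone (Creb3l3 and Hnf4a), 3 with Combination replicate 1 alone in its group and 13 without Combination replicate 1. It was 2 without Control replicate 1, and 3 without Control replicate 2 or Combination replicate 2 or 3.

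Of 13 receptor and partner genes tested, Lsr (2.76 ± 0.48, adjusted p = 0.00882), which takes up remnants in the liver, and Cd36 (2.00 ± 0.47, adjusted p = 0.0388), a fatty acid transporter, were called higher in Combination against Control. Both calls were lost when the 2 groups were fitted alone and when Combination replicate 1 was the sole library of its group. The HDL receptor gene Scarb1 averaged 36.8 ± 12.7 FPKM in Control and 47.3 ± 15.96 FPKM in Combination (0.35 ± 0.35, adjusted p = 0.504). In the remodelling and efflux list 1 of 11 genes passed, where 3.55% of all tested genes were called higher. This gene was Lcat (4.62 ± 1.07, adjusted p = 0.0352), whose enzyme esterifies cholesterol on HDL with Apoa1 as its activator. The count for this list was 7 without Combination replicate 1, where 11% of all tested genes were called higher. It was 1 without GC replicate 2 or 3, and 0 without any other library. It was 0 with the 2 groups fitted alone, TMM factors or no filter, and 3 with a pseudocount of 0.1 FPKM or rescaled totals. The receptor count was 3 without Combination replicate 1, 2 without GC replicate 1 or 2, and 1 without any other library. It was 1 with a pseudocount of 0.1 FPKM, no filter or quantile normalization.

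Of 7 genes tested that lie beside the apolipoprotein clusters on chromosomes 7 and 9 without being apolipoproteins, 0 passed limma's test in Combination against Control. Tomm40, next to Apoe, averaged 49.0 ± 13.4 FPKM in Control and 44.1 ± 24.9 FPKM in Combination (-0.26 ± 0.40, adjusted p = 0.665). Zpr1, next to Apoa5, averaged 26.3 ± 5.99 and 23.01 ± 3.1 FPKM (-0.17 ± 0.24, adjusted p = 0.644). The median log2 difference of the 7 neighbours was -0.17, beside -0.29 over all tested genes and 7.31 over the members.

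Hepatocyte genes outside the apolipoproteins moved with the members. In Combination against Control 14 of 18 were called higher, with a median log2 difference of 6.83, and 2 of the 11 tested enterocyte genes were called (Fabp2 and Anpep). In GC and ICB against Control the hepatocyte list had 0 genes called, all 18 differences positive, and medians of 4.72 and 3.55. Combination replicate 1 had the 3 enterocyte-defining genes named above, a hepatocyte list mean of 3.64, below all GC libraries (4.16 to 7.18), and Apoa1 above every library outside Combination.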

How the data were processed

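Stranded libraries had been prepared from total RNA of tumour tissue with kits from Qiagen (labels' protocols). The table deposited by the authors gives FPKM for each gene symbol and library. The submitters' processing notes name the mm10 genome and the tools FastQC, cutadapt, HISAT2, SAMtools and HTSeq. Versions, the step that made FPKM and the use of strand are not given in the sources used here. Depth is unknown: low values (up to 0.1 FPKM) of 66 library pairs did not fall on whole-read steps, since a median of 11.1% (maximum 17.3%) of log2 ratios lay in the bin of width 0.1 that held most. No count model was therefore used. The FPKM total of a library ranged from 547146 to 660067, with 14533 to 16442 symbols above 0.

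Libraries were grouped by their titles, whose replicate numbers are used here and as the block; the numbers in the labels' descriptions differ from these in some libraries, and 0 columns stayed unmapped. Deviations from the group means of same-numbered libraries correlated above 0.1 in all 3 pairs only between ICB and Combination (0.139 to 0.289). The labels state no pairing, and ICB replicate 3 with Combination replicate 2, of unlike number, reached 0.170. Whether the number pairs libraries is therefore not known. The block fit covered all 4 groups, although same-numbered Control libraries correlated negatively with ICB and Combination (-0.236 to -0.053). The main fit used no block. The scale was log2 of FPKM + 1, and limma 3.58.1 was run in R 4.3.3. Genes averaging 1 FPKM or more (12765) were tested. Means of the 4 groups were fitted together over 12 libraries (8 residual degrees of freedom, empirical Bayes with an intensity trend). All p-values are two-sided, and adjusted ones follow Benjamini and Hochberg over all tested genes, with a threshold of 0.05. The script was tested on simulated data. The members and gene lists were chosen with earlier results of these data known. The naming rule took all members and, from each list, the genes with the smallest p in Combination against Control; other list genes were named after their values were seen. Gene positions are from GENCODE and promoter sequences from RefSeq (GRCm38.p6). Alternatives were another pseudocount, other filters, other scalings, no intensity trend, fits of the compared groups alone, the replicate block and leaving out libraries. Single values of some list genes are not reported here.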

Additional observations from a re-analysis of the deposited data

How the results depend on the processing

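The direction of all 10 members in GC, ICB and Combination against Control held under every alternative run. The number called in Combination against Control (10) was 3 when the compared groups were fitted alone (0.729% of all tested genes called higher). The fit without Combination replicates 2 and 3 was chosen after seeing the data, and its 1 remaining library is assumed to vary like the other groups. With 1 library left out the number was 4 to 10, in fits that called 1.63% to 11% of tested genes higher. For GC against Control (0) it was 6 without Combination replicates 2 and 3 and 0 to 7 when 1 library was left out. In Combination against GC (1) it was 0 with a pseudocount of 0.1 FPKM, a mean of at least 10 FPKM or no filter. TMM factors, quantile normalization and the compared groups alone also gave 0. It was 0 to 9 when 1 library was left out, in fits that called 0.18% to 8.76% of tested genes higher. In Combination against ICB (3) it was 1 with no filter or TMM factors and 0 with the compared groups alone. It was 1 to 9 when 1 library was left out, in fits that called 0.815% to 10.1% of tested genes higher. For the interaction (0) it was 0 to 1 when 1 library was left out. The 1 was Apob without Combination replicate 1, where 4.47% of tested genes were called higher. In ICB against Control it was 0 throughout. The cause of these shifts was not tested.

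Over all groups, the correlations of libraries with the same replicate number ran from -0.236 to 0.416 (18 pairs, 8 over 0.1; 5 of 12 libraries correlated best with their own number), and 3 of 3 pairs were over 0.1 between ICB and Combination only. With the replicate block the count was 0 in Combination against GC and 1 in Combination against ICB, and the block moved no other count by more than 1.5 times.

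Without Combination replicates 2 and 3 the difference from GC turned negative for Apoa2 (-1.43), Apoa5 (-1.57), Apoc1 (-1.746), Apoe (-0.97), Apoh (-1.71) and Apom (-0.37), and that from ICB for Apoa5 (-1.06) and Apoh (-0.35). The interaction, which no member passed in the main fit, changed sign readily. It was -3.996 for Apoa2, -1.55 for Apoe and -2.22 for Apom without those libraries, -0.77 for Apoa4 and -0.51 for Apom with a pseudocount of 0.1 FPKM, 0.03 for Apoa5 and 0.063 for Apoh with TMM factors, and 0.23 for Apoa5, -0.10 for Apoe and 0.20 for Apoh with quantile normalization. When 1 library was left out it ran from -1.77 to 0.11 for Apoa1, -0.92 to 2.61 for Apoa2, -0.62 to 1.83 for Apoa4, -1.71 to 1.65 for Apoa5, -2.28 to 1.10 for Apoc1, -1.36 to 0.40 for Apoc3, -0.53 to 0.97 for Apoe and -1.72 to 1.84 for Apoh.

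TMM factors moved the median of all genes by 0.25 in Combination against Control, 0.35 against GC and 0.18 against ICB, and quantile normalization by 0.22 against GC and -0.18 in GC against Control. Weights per library were not run, since their estimation did not converge. Depth is unknown, so no limit can be set for values listed at 0.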

Other observations

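Genes that act on the Apob transcript are in the table as well. Apobec1, which edits a base in Apob mRNA so that a shorter protein is made, averaged 8.03 ± 3.70 FPKM in Control, 13.89 ± 2.21 in GC, 9.20 ± 2.35 in ICB and 9.77 ± 0.91 in Combination (SD, n = 3). Its RNA-binding cofactor A1cf was listed at 0 in all Control and ICB libraries and measured 0.091, 0.215 and 0.884 FPKM in GC and 0.526, 33.1 and 12.5 FPKM in Combination replicates 1 to 3. These genes were chosen after their values were seen, and no test was made of them. Whether the Apob transcript was edited cannot be read from these values.

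The Kupffer cell gene Clec4f, a lectin of resident liver macrophages, had a value of 0 in every Control library. It measured 0.907, 57.5 and 26.9 FPKM in Combination replicates 1 to 3, where Apoe measured 1878, 14884 and 7802 FPKM. Vsig4, Timd4 and Cd5l of the same 5-gene list were also highest in Combination replicate 2. The last gene of that list, Marco, measured 12.6, 11.6 and 5.09 FPKM in Combination and was highest in ICB replicate 1 (24.1 FPKM). Of the 4 Kupffer genes tested 0 were called in Combination against Control. The part of Kupffer cells in the Apoe values was not tested. Clu, the gene of clusterin (also called apolipoprotein J), measured 51.7, 28.2 and 15.9 FPKM in Control, 388, 127 and 698 FPKM in GC, 88.1, 152 and 218 FPKM in ICB, and 23.1, 706 and 425 FPKM in Combination. Combination replicate 1 was within the Control range for Clu while every GC and ICB library was above it. Apod was below the filter on low values, with its highest values in GC replicate 2 (4.45 FPKM) and Control replicate 2 (3.07 FPKM), the libraries with skeletal muscle transcripts.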
